A study of Mus musculus with 29 samples.

Results

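Endoderm cultures grown from naive embryonic stem cells (nEnd) were set against anterior definitive endoderm (ADE) on 10 of the 29 single-colour Agilent expression arrays of a series of mouse cultures. The members were chosen by sample title: 3 Mid and 3 Late arrays make up the nEnd side and 4 ADE arrays the other side. Mid and Late started as embryonic stem cells of line HRHnG, a double reporter line; these were exposed to Activin, CHIRON and LIF over 7 to 8 days and afterwards passaged in nEnd medium, Mid to passage 7 to 10 and Late to passage 14 to 15. ADE came from epiblast stem cells (EpiSC), the primed pluripotent cells of the later embryo, which were differentiated for 4 days. The labels spell their line HRHNG, which was taken to be the same line, although Y-linked genes differ between the sides (below). The labels give no medium for ADE. All 10 arrays carry the label male. In the text, nEnd is the mean of the Mid mean and the Late mean.

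The sides were not run together. Mid and Late belong to a first set of arrays, on slides 1, 2 and 3 and 2 scan days, and ADE to a second set, on slides 5 and 6 and another scan day, read with another software version. Array set and cell type therefore cannot be told apart in any difference between nEnd and ADE. Beside the plain difference, each side was also set against stem cells kept in 2i with LIF on arrays of its own set: ESC of line HRHnG for nEnd, and 2iL of lines HVMC, E14 and E14-NanogGFP for ADE. This own-set difference takes out an additive effect of the set on a gene, together with whatever differs between those lines. Both differences use the same 10 arrays, so they are given side by side and not as separate evidence. Each nEnd replicate was a differentiation of its own, per the labels. What separates the ADE replicates is not stated, so their spread may be technical. The p-values and standard errors (SE) measure only the spread between samples of a group, pooled over the 9 groups of all 29 arrays. That pooled spread can differ from the spread within Mid, Late and ADE.

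Endoderm forms by distinct routes in the mouse. Primitive endoderm arises beside the naive epiblast and gives the visceral and parietal layers, which absorb maternal nutrients, secrete serum proteins and lay down basement membrane. Definitive endoderm arises later from the primed epiblast through the primitive streak under Nodal signalling, and its anterior part secretes inhibitors of Nodal, Wnt and BMP that pattern the head. Both kinds share a core of transcription factors, among them GATA factors, Sox17 and Foxa2. In bulk RNA, fewer cells of a type and less RNA per cell cannot be told apart.

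A check of the sex label comes before the results. Eif2s3y, a translation factor gene on the Y chromosome, stood at 2.82, 3.31 and 3.47 (lowest, median and highest of the 6 nEnd arrays) and at -6.81, -6.50, -6.66 and -6.96 on the 4 ADE arrays. These values, like all levels here, are log2 signals relative to the 75th percentile of each array. The ADE probe was well above background on 0 of 4 arrays, so nEnd was at least 245-fold higher. Ddx3y, an RNA helicase gene on the same chromosome, spanned -2.24 to 1.33 on nEnd arrays and -7.01 to -6.33 on ADE arrays. The EpiSC and XEN arrays were also at background for both genes, while ESC, Diff, 2iL and NACL arrays measured them. Of 13 Y-linked genes tested, 10 were called higher in nEnd and 0 lower, and 10 were well above background on 0 ADE arrays. Xist, the RNA that silences an X chromosome, was well above background on 0 ADE arrays and on 5 nEnd arrays, at -5.04, -2.79 and -1.81 (lowest, median and highest). The X-linked partner Eif2s3x lay between 1.40 and 1.96 on nEnd arrays and between 1.42 and 1.45 on ADE arrays, a difference of 0.27 (95% interval -0.02 to 0.55) with no call. The other 3, Rbmy, Sry and Gm20877, were well above background on 4, 2 and 1 ADE arrays, and Rbmy was higher in nEnd by 5.40. The label and most Y-linked probes thus disagree for all 4 ADE arrays, so no result can be given with and without such arrays. Whether ADE and nEnd are of 1 line was not tested. A difference of line or of Y chromosome content cannot be told apart from array set and cell type here.

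**Figure D1:**
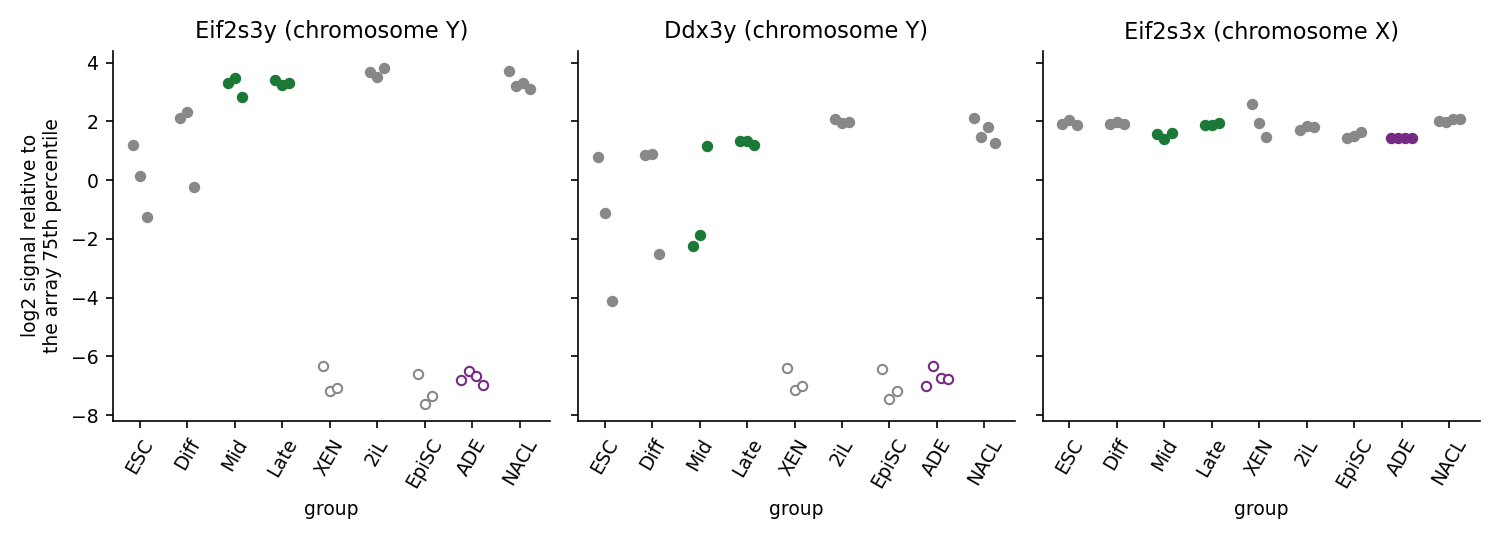
Level of 2 Y-linked genes and 1 X-linked gene on each of the 29 arrays by group, as log2 signal relative to the array's 75th percentile; green points are Mid and Late, purple points ADE, grey points the other groups, and open points were not well above background. Eif2s3y lies between 2.82 and 3.47 on nEnd arrays and between -6.96 and -6.50 on ADE arrays, while Eif2s3x lies between 1.40 and 1.96 on both sides.

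Among themselves the arrays of a group were alike. The root mean square log2 difference between 2 arrays over 16333 genes tested had a median of 0.853 within Mid, 0.646 within Late and 0.683 within ADE. Mid and Late arrays differed by a median of 0.863, while nEnd and ADE arrays differed by 1.9 to 2.091. Mid 3, scanned on another day than the other nEnd arrays, was 0.853 and 0.864 from the other Mid arrays, which were 0.594 apart. Between 53.5% and 67.9% of probes on nEnd arrays read well above background, as did between 54.1% and 64.3% on ADE arrays, and 0 were saturated.

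Across all genes, 8715 of 16333 (53.4%) were called at a limma adjusted p under 0.05, 4378 (26.8%) higher in nEnd and 4337 (26.6%) higher in ADE. With a log2 difference of at least 2 as well, 1245 genes (7.62%) were higher in nEnd and 1542 (9.44%) in ADE. The 6 nEnd and 4 ADE values did not overlap for 6662 genes (40.8%). Against own-set stem cells, 5883 genes (36.0%) were called, 3412 (20.9%) higher in nEnd and 2471 (15.1%) higher in ADE. Both differences were called in the same direction for 2839 genes (17.4%) higher in nEnd and 2279 (14.0%) higher in ADE, and in opposite directions for 12 (0.0735%). Any count of called list members below is to be read against these shares. Some genes belong to several lists, so list counts are not independent of each other. Cer1 and Gsc, for example, count in both the definitive endoderm and the primitive streak lists. Where a gene was well above background on only some arrays of a side, its difference rests partly on readings near background, and the number of arrays that measured it is given.

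**Figure D2:**
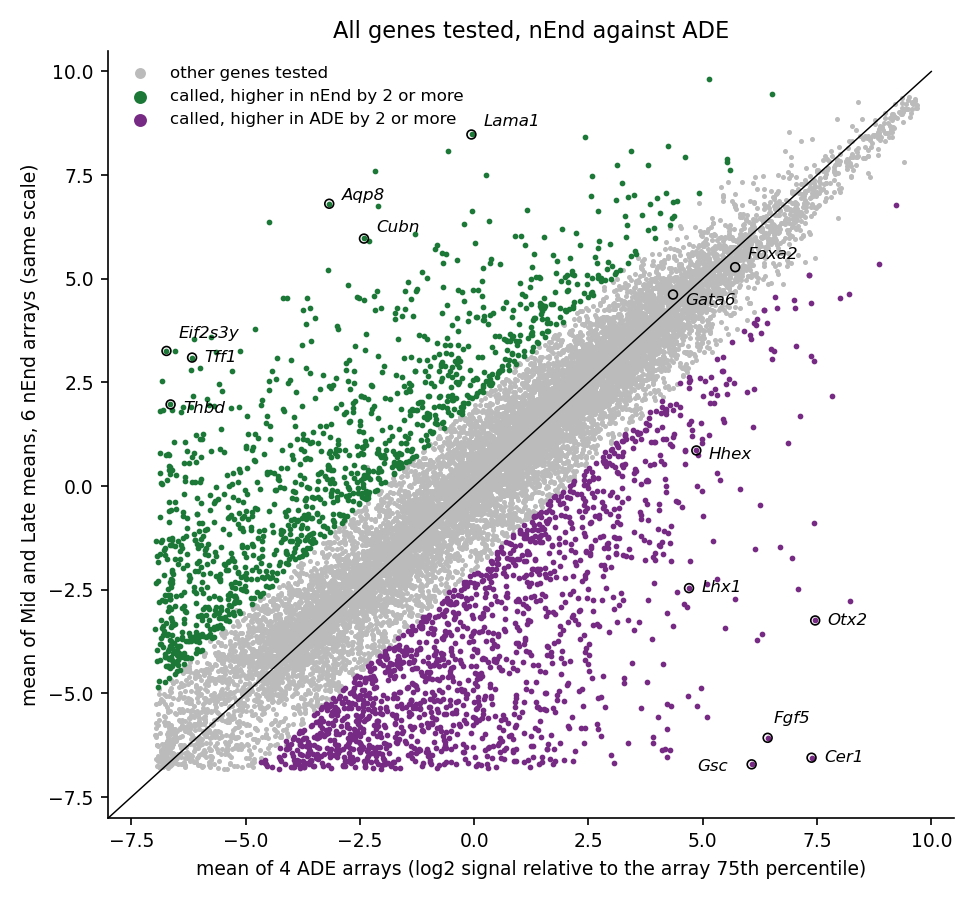
Mean level of each of the 16333 genes tested on the ADE arrays (x axis) and the nEnd arrays (y axis), both as log2 signal relative to the array's 75th percentile; green points were called and higher in nEnd by at least 2, purple points called and higher in ADE by at least 2, and the line marks equal levels. Gata6 and Foxa2 lie near the line, Lama1, Cubn and Aqp8 far above it, and Cer1, Gsc and Otx2 far below it.

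The promoters of 5 of the genes with the largest differences are shown to set their sequence beside their levels. Aqp8, a water channel, and Cubn, the receptor cubilin, were among the 8 largest differences towards nEnd of genes measured on all 10 arrays. Cer1 and Fgf5, secreted factors described below, led among genes at background in nEnd. Sfrp5, a secreted Wnt inhibitor of anterior endoderm, was among the largest differences measured on all arrays and higher in ADE. Each line holds the 250 bases before the gene's start in RefSeq annotation of build GRCm38.p6, 5′ to 3′ on the gene's strand. Capitals mark matches, on either strand, to 1 of 4 motifs. The GATA factor motif was AGATAA. That of forkhead factors was TGTTTA. That of the OTX and GSC homeodomains was TAATCC. That of T-box factors was AGGTGT. Matches of different motifs were allowed to overlap.
Aqp8: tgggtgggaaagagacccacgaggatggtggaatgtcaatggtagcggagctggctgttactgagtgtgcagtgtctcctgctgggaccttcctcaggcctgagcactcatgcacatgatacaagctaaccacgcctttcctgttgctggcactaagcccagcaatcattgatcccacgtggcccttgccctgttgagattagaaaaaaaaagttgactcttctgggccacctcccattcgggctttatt
Cubn: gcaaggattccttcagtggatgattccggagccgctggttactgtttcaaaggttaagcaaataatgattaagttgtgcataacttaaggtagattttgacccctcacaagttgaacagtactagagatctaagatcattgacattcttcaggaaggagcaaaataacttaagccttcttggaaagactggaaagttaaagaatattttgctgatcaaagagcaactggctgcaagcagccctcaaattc
Cer1: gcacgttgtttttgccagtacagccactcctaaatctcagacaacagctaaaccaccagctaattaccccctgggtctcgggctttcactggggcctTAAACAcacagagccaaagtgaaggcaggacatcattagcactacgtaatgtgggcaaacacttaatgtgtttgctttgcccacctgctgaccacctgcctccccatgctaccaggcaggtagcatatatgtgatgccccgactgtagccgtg
Fgf5: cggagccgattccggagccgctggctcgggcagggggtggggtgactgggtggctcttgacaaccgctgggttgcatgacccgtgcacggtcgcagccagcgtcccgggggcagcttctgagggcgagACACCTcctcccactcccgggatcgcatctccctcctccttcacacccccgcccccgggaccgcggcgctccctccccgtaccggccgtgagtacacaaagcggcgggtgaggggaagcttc
Sfrp5: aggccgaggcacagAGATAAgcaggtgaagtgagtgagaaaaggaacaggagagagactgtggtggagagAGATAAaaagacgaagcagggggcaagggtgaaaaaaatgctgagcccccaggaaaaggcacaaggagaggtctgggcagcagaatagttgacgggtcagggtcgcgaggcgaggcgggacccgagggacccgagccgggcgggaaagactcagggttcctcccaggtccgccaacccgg
The window of Aqp8 is chr7:123462044-123462293, plus strand. That of Cubn is chr2:13491877-13492126, minus strand. Neither holds any of the 4 motifs. Cer1 (chr4:82885152-82885401, minus strand) holds 1 forkhead match, TAAACA, which starts 153 bases before the gene's start. Fgf5 (chr5:98253934-98254183, plus strand) holds 1 T-box match, ACACCT, at 122 bases before the start. Sfrp5 (chr19:42202253-42202502, minus strand) holds 2 GATA matches, AGATAA, at 236 and 180 bases before the start. Promoters of Dab2 and Amn, higher in nEnd, and of Gsc, Lhx1, Otx2 and Shisa2, higher in ADE, were searched too but are not printed. Shisa2 holds 1 T-box match, at 97 bases before the start. Those of Dab2, Amn, Gsc, Lhx1 and Otx2 hold none of the 4 motifs, so a match is not particular to the ADE side.

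Such matches were common. Of 27025 promoters of this length, 10.3% held the GATA motif, 12% the forkhead motif, 6.38% the OTX and GSC motif and 12% the T-box motif. Among the 12939 genes tested with a promoter the shares were 7.15%, 8.54%, 5.39% and 10.6%, in the same order. Of the 954 such genes higher in nEnd by at least 2, 9.43% held the GATA motif, 11% the forkhead motif, 4.82% the OTX and GSC motif and 12.4% the T-box motif. For the 1144 higher in ADE by at least 2, those shares were 7.17%, 6.91%, 4.90% and 12%. A match is a description of letters and not a bound site.

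In the list of extraembryonic endoderm factors, Gata6, Gata4, Sox17 and Foxa2, which both kinds of endoderm share, were not called. Their intervals allow a difference in either direction, so a missing call does not show equal levels. Gata6, the zinc finger factor that directs primitive endoderm, was at 4.43, 4.62 and 4.80 (lowest, median and highest of nEnd) and at 4.65, 4.76, 4.10 and 3.89 on ADE arrays. Gata4, its relative, was at 3.14, 4.20 and 4.31 in nEnd and 4.19, 3.95, 4.86 and 4.27 in ADE. Both genes' ranges overlapped and neither was called, with nEnd minus ADE at 0.27 (95% interval -0.73 to 1.27) for Gata6 and -0.28 (95% interval -0.95 to 0.39) for Gata4. Sox17, an HMG box factor of all endoderm, was at 5.05, 5.38 and 5.54 in nEnd and 4.98, 5.52, 4.38 and 4.46 in ADE, a difference of 0.51 (95% interval -0.23 to 1.24) without a call. It was called higher in nEnd by 0.61 with the normexp background correction (adjusted p = 0.03) and by 0.57 in the authors' deposited matrix (adjusted p = 0.042). The own-set difference of Sox17 was 3.66 and was called (adjusted p = 1.9e-05); its mean was -6.80 on ESC arrays and -3.65 on 2iL arrays. Foxa2, a forkhead pioneer factor, differed by -0.43 (95% interval -1.73 to 0.86) and was called, higher in ADE, only in a fit of the 10 arrays alone (adjusted p = 0.044).

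Other factors of the same list were called in either direction. Of its 15 members tested, 5 were called higher in nEnd, 5 higher in ADE and 5 were not called. That is 33.3% each way, beside 26.8% and 26.6% over all genes. The median difference was 0.11 beside 0.03 over all genes. Hnf4a, a nuclear receptor of visceral endoderm, was at 3.00, 3.33 and 4.06 in nEnd and 1.57, 2.18, 1.45 and 1.38 in ADE and was higher in nEnd by 1.82 ± 0.47 (log2 ± SE, n = 6 and 4, adjusted p = 0.0021). The ranges of Hnf4a did not overlap. Pdgfra, the growth factor receptor used to sort primitive endoderm, was higher in nEnd by 4.75 ± 0.46 and Sox7, an HMG box factor, by 1.94 ± 0.59. The own-set difference of Sox7 was 1.67 and was not called (adjusted p = 0.19), and Mid alone was not called against ADE (adjusted p = 0.16). Foxa1, the close relative of Foxa2, went the other way, from -2.88 to -0.26 in nEnd to 4.50 to 5.09 in ADE. Otx2, Lhx1 and Eomes, described below with the anterior endoderm genes, are members of this list too and were higher in ADE.

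Genes of definitive and anterior endoderm were mostly higher in ADE. Of 21 members tested, 14 were called higher in ADE, 1 higher in nEnd and 6 were not called, with a median nEnd minus ADE difference of -3.17. Against own-set stem cells, 11 were called higher in ADE and 1 higher in nEnd. Cer1, the secreted Nodal, BMP and Wnt inhibitor Cerberus, was at 7.61, 7.37, 7.54 and 7.00 on ADE arrays. On nEnd arrays it was at -7.29, -6.45 and -6.04 and well above background on 0 of 6, so ADE was at least 4202-fold higher. Gsc, the homeobox gene goosecoid of the organiser, showed the same split, at 6.07, 6.43, 5.93 and 5.84 in ADE and background on all 6 nEnd arrays, at least 1694-fold. Neither gene overlapped between the sides, which follows from naming genes at background on a whole side. Over all genes tested, 40.8% did not overlap.

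Hhex, a homeobox factor of anterior visceral and definitive endoderm, was measured on every array, at 0.10, 0.68 and 1.85 in nEnd and 5.16, 5.03, 4.57 and 4.68 in ADE. ADE was higher by 4.00 ± 0.32 (adjusted p = 2.8e-10), and the own-set difference was 3.15 in the same direction. Mid arrays (0.22, 0.73 and 0.10) and Late arrays (1.85, 0.63 and 1.63) overlapped each other, and all lay below ADE. Cxcr4, the chemokine receptor used to sort definitive endoderm, was at -3.15, -2.52 and -1.81 in nEnd and 2.77, 2.81, 2.05 and 2.33 in ADE, higher in ADE by 4.98 ± 0.40. Otx2, a head homeobox factor, was higher in ADE by 10.69 ± 0.64, with 5 of 6 nEnd arrays well above background. Lhx1, a LIM homeobox factor of the organiser, was higher by 7.16 ± 0.27 and Eomes, the T-box factor that starts definitive endoderm, by 5.07 ± 0.29. Eomes stood at -1.06, -0.87 and -1.56 on Mid arrays and at 0.14, -0.05 and 0.34 on Late arrays, which did not overlap each other and both lay below ADE at 4.72, 5.03, 4.24 and 4.25.

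Trh, the thyrotropin-releasing hormone gene expressed in anterior endoderm, was uneven within nEnd. Mid arrays held -3.61, -3.89 and 1.44, Late arrays -0.60, -1.27 and -1.22 and ADE arrays 6.36, 5.78, 5.86 and 6.60. Mid 3 was above every other nEnd array, and ADE was higher by 7.68 ± 0.76 with it and by 8.54 without it. Sox2, a factor of foregut and of pluripotent cells, was at background on 5 nEnd arrays and at -2.44 on Mid 3, below the ADE range of -1.76 to 0.12. Shisa2, an inhibitor of Wnt and FGF receptors, was at background on all nEnd arrays and at least 446-fold higher in ADE. Sfrp5, whose promoter is shown above, was at -2.56, -0.89 and 0.68 in nEnd and 7.42, 6.90, 8.01 and 7.44 in ADE, higher in ADE by 8.34 ± 0.45. Prdm1, a transcriptional repressor of anterior endoderm and germ cells, was higher in ADE by 6.00 and Hesx1, a head homeobox gene, by 3.17. Nepn, which encodes the foregut and midgut proteoglycan nephrocan, was the member higher in nEnd, by 3.53 ± 0.53. Dkk1, a Wnt antagonist, was not called at -1.34 (95% interval -2.62 to -0.06), and neither were Pax9, Nkx2-5, Sox21 or Pyy.

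**Figure D3:**
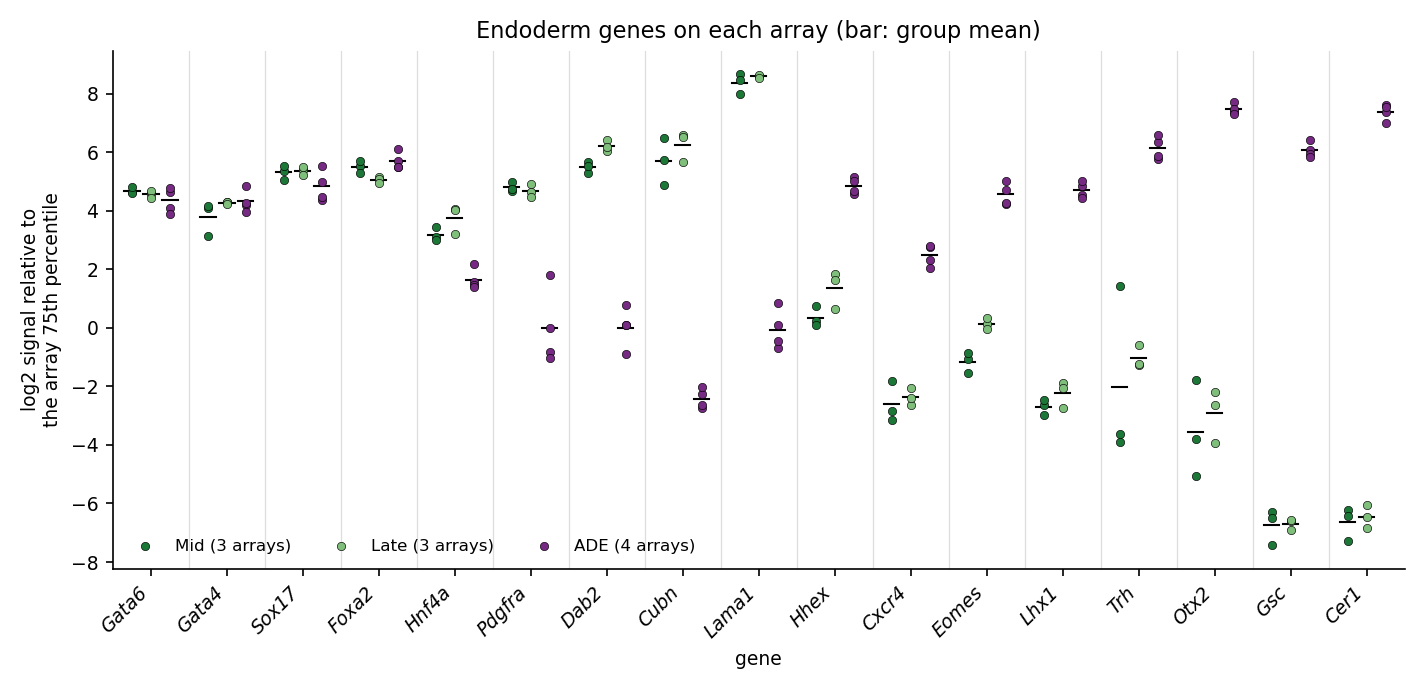
Level of 17 endoderm genes on each Mid (dark green), Late (light green) and ADE (purple) array, as log2 signal relative to the array's 75th percentile, with a bar at each group mean. Gata6, Gata4, Sox17 and Foxa2 overlap between the sides, Hnf4a to Lama1 lie higher in nEnd, and Hhex to Cer1 lie higher in ADE, with Cer1 at 7.00 to 7.61 in ADE and -7.29 to -6.04 in nEnd.

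Receptors and adaptors that visceral endoderm and kidney use to take up protein were among the largest differences towards nEnd. Cubn, the receptor cubilin, was at 4.88, 6.10 and 6.57 in nEnd and -2.27, -2.02, -2.74 and -2.63 in ADE, higher in nEnd by 8.39 ± 0.59 (adjusted p = 2.9e-11). Amn, the amnionless protein that carries cubilin to the surface, was at 4.94, 5.45 and 6.01 in nEnd and 0.21, 0.27, 0.56 and 0.43 in ADE, higher by 5.11 ± 0.32. Lrp2, the giant receptor megalin, was higher by 5.83 ± 0.38 and Dab2, the adaptor that brings both receptors into coated pits, by 5.85 ± 0.76. None of these 4 overlapped between the sides, as was so for 40.8% of all genes tested. They were named as the largest differences of their list towards nEnd. Their own-set differences were 7.97, 5.72, 7.73 and 8.36. The list as a whole was mixed, with 6 of 13 higher in nEnd, 3 higher in ADE and 4 not called. Folr1, a folate receptor, was higher in nEnd by 3.70 and Lrpap1, the chaperone of megalin, by 2.13. Vldlr and Lrp1, lipoprotein receptors, were higher in ADE by 1.71 and 1.69. Scarb1, the HDL receptor, was higher in ADE by 0.86, but another probe for it was called in the opposite direction. The calls of Vldlr and Scarb1 were lost with the mean over all probes of a gene, and that of Vldlr against own-set stem cells. The transferrin receptor Tfrc was not called.

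Secreted products of visceral endoderm were higher in nEnd for 16 of 25 members and higher in ADE for 4. Ttr, the thyroid hormone carrier transthyretin, was at 3.74, 4.82 and 5.47 in nEnd and -0.56, -2.63, -1.48 and -1.43 in ADE, higher in nEnd by 6.23 ± 0.52. Ihh, a hedgehog ligand of visceral endoderm, was higher by 6.33 ± 0.45 and S100g, a calcium binding protein, by 6.63 ± 0.72. Afp, the fetal serum protein alpha-fetoprotein, spread widely, at -0.03, -2.61 and 1.80 on Mid arrays and 0.36, 2.02 and 0.49 on Late arrays. It was well above background on 2 ADE arrays, at -4.89 to -3.85 over the 4. Dpp4, a membrane peptidase, was at 3.27, 3.54 and 4.04 in nEnd and was well above background on 1 ADE array. The members higher in ADE were Fgg, a fibrinogen chain, by 4.27 with 2 nEnd arrays well above background, Apoa4 by 2.25, Apoa1 by 1.86 and the zinc transporter Slc39a8 by 2.53. For Apoa1, Mid arrays held 2.99, 1.44 and 0.55, Late arrays -1.13, -0.20 and -1.45 and ADE arrays 2.20, 0.92, 2.46 and 3.31, and Mid alone was not called against ADE (adjusted p = 0.36). The fibrinogen chains were not alike, since Fgb was higher in nEnd by 4.82 and Fga was not called. Apob, Rbp4 and Spink1 were not called either.

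Parietal endoderm and basement membrane genes leaned the same way. These lists share Lama1, Lamb1, Nid1, Sparc, Col4a1 and Col4a2, so their counts are not separate. Of 17 parietal endoderm members tested, 15 were higher in nEnd and 1 was higher in ADE, and the median difference was 3.96. Thbd, the thrombin receptor thrombomodulin, was at 0.61, 1.75 and 3.05 in nEnd and well above background on 0 ADE arrays, at least 100-fold higher in nEnd. Srgn, the core protein serglycin, was higher by 7.24 ± 0.37 and Fst, which binds Activin, by 3.59 ± 0.52. Vim, the intermediate filament protein vimentin, was the exception, at -1.98, 0.12 and 1.62 in nEnd and 4.01, 3.81, 3.02 and 3.77 in ADE. Stra6, a retinol receptor, was not called at 0.06 (95% interval -1.19 to 1.31).

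Of 25 basement membrane members, 17 were higher in nEnd, 5 higher in ADE and 3 not called. Lama1, the alpha 1 chain of laminin, was at 7.99, 8.56 and 8.66 in nEnd and 0.84, 0.09, -0.70 and -0.46 in ADE, higher in nEnd by 8.54 ± 0.28. Its partner chains differed less, by 1.66 for Lamb1 and 2.36 for Lamc1, and the own-set difference of Lamb1 was not called (adjusted p = 0.078). Col4a1 and Col4a2, the major chains of type IV collagen, were higher in nEnd by 3.96 and 4.61. The collagen-modifying enzymes P4ha2, P4ha1, Plod2 and Plod1 were higher by 6.53, 3.04, 6.43 and 1.27. Among other chains, Lama5 was higher in ADE by 2.34, Lamb3 by 2.59, Col18a1 by 3.49 and Col4a5, a minor type IV chain, by 2.58 with 4 nEnd arrays well above background. Col4a6, another type IV chain, was not called at 0.09 (95% interval -0.49 to 0.67). Lamb3 was not called against own-set stem cells (adjusted p = 0.44) or with Mid alone (adjusted p = 0.096). Fn1, which encodes fibronectin, spanned 3.54 to 6.33 in nEnd and 4.63 to 5.10 in ADE and was not called.

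Epithelial genes were called in both directions in like numbers. Of 24 members, 7 (29.2%) were higher in nEnd, 6 (25.0%) higher in ADE and 11 not called, with a median of 0.00. These shares were near the 26.8% and 26.6% over all genes. Own-set counts were 7 higher in nEnd and 3 in ADE. Cdh1, the adhesion protein E-cadherin, was at 4.04, 4.33 and 4.77 in nEnd and 4.61, 4.72, 5.0 and 4.77 in ADE, a difference of -0.38 (95% interval -1.31 to 0.56) without a call. Epcam, an epithelial adhesion protein, differed by 0.03 (95% interval -0.47 to 0.53), but against own-set stem cells it was called higher in nEnd by 2.06 (adjusted p = 0.00019). Its mean was -2.23 on ESC arrays and -0.2 on 2iL arrays, so the own-set value rests largely on the stem cells. The keratins Krt8 and Krt18 were not called. Krt19 and Elf3, an epithelial transcription factor, were higher in nEnd by 2.88 and 3.82, Krt19 without a call against own-set stem cells (adjusted p = 0.098). Grhl2, an epithelial transcription factor, Krt7 and Rab25 were higher in ADE by 4.70, 2.56 and 3.29.

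Mesenchymal genes were mostly higher in ADE, 13 of 18 against 2 higher in nEnd, with a median of -3.23. Cdh2, the adhesion protein N-cadherin, was at -1.97, 0.17 and 1.07 in nEnd and 5.06, 5.74, 4.21 and 4.48 in ADE, higher in ADE by 4.87 ± 0.51. Zeb1, a repressor of Cdh1, was higher in ADE by 3.81, with 3 nEnd arrays well above background, and Col1a2 by 4.75. Mmp2, a matrix protease, was well above background on 0 nEnd arrays and at least 16-fold higher in ADE. Snai1, a repressor that drives the change from epithelium to mesenchyme, was one of the members higher in nEnd, by 3.24 ± 0.40, while its relative Snai2 was at least 4.18-fold higher in ADE. The other, Cdh11, was higher by 2.36 with the probe used, with 2 ADE arrays well above background, and called in the opposite direction with another.

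**Figure D4:**
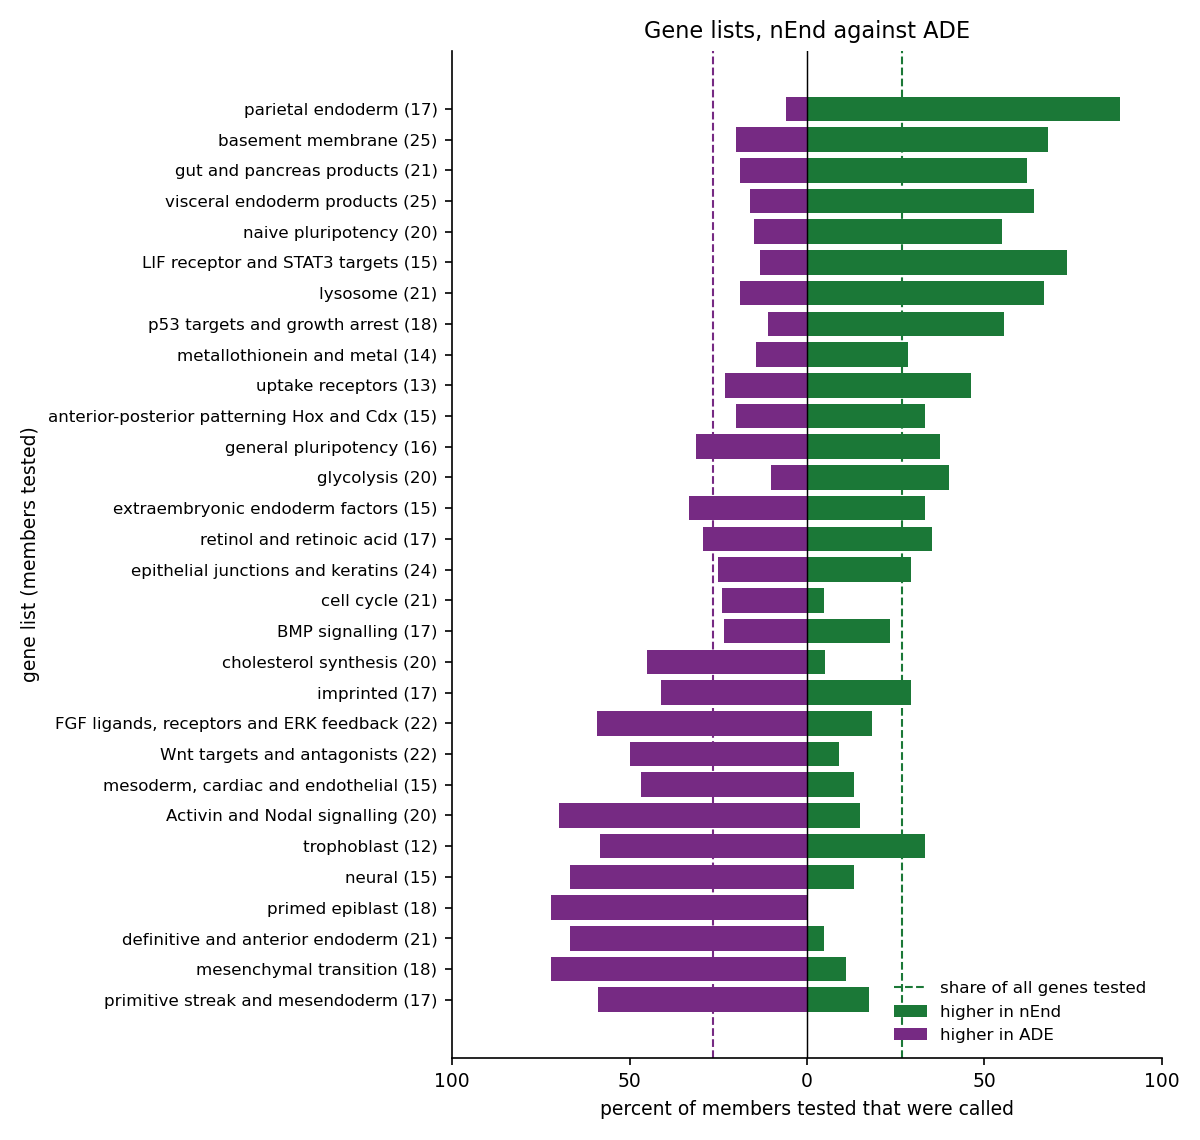
Share of the tested members of each of 30 gene lists called higher in nEnd (green, to the right) or higher in ADE (purple, to the left), in percent, ordered by median difference, with the number of members tested in brackets. Dashed lines mark the shares over all genes tested, 26.8% and 26.6%; parietal endoderm reaches 88.2% towards nEnd, and primed epiblast and mesenchymal transition reach 72.2% towards ADE.

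Lists for the stages before definitive endoderm held more members higher in ADE than in nEnd. Of 17 primitive streak and mesendoderm members tested, 10 were higher in ADE, 3 in nEnd and 4 were not called. Mixl1, Evx1 and Wnt3, genes of the streak, were well above background on 0 nEnd arrays and at least 6.4-fold, 38-fold and 10.4-fold higher in ADE. Fgf8, a growth factor of the streak, was at -2.64, -2.33 and -2.10 in nEnd and 5.05, 5.78, 4.59 and 4.96 in ADE, higher in ADE by 7.44 ± 0.36. The members higher in nEnd were Cdx2 by 2.73, Sp8 by 6.05 and Mesp2 by 0.87, the last 2 with 2 ADE arrays well above background each. The call of Mesp2 was lost without ADE 1 or without ADE 4 (adjusted p = 0.12 and 0.089) and when Mid and Late of a number were averaged first. Late alone was not called against ADE for Cdx2 (adjusted p = 0.068).

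Of 18 primed epiblast members, 13 were higher in ADE, 0 in nEnd and 5 were not called. Fgf5, the growth factor that marks primed epiblast, was at 6.45, 6.70, 6.29 and 6.24 in ADE and well above background on 0 nEnd arrays, so ADE was at least 2161-fold higher. Its mean on EpiSC arrays was 3.85, beside 6.42 in ADE. Sox11 was higher in ADE by 6.82, with 1 nEnd array well above background, and Sox4 by 3.39. Pou3f1 and Zic5, also of the primed epiblast, were not called.

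Marker lists of other cell types also moved with the sides. In the neural list 10 of 15 members were higher in ADE and 2 in nEnd, in the list of mesoderm, cardiac and endothelial genes 7 of 15 against 2, and in the trophoblast list 7 of 12 against 4. Against own-set stem cells the neural list held 6 higher in ADE and 0 in nEnd, the mesoderm list 5 and 3, and the trophoblast list 6 and 4. Stmn2, a neuronal microtubule protein, was higher in ADE by 7.83, Actc1, cardiac actin, by 5.42, and Gata3, of trophoblast and other lineages, by 7.73, with 1, 2 and 2 nEnd arrays well above background. Tek and Cdh5, endothelial genes, were higher in nEnd, Tek at least 8.17-fold and Cdh5 by 4.35 with 1 ADE array well above background. Gata2, of trophoblast and blood, was at least 33.4-fold higher in nEnd. Neurod1 and Hand1 were well above background on 0 nEnd arrays and 1 ADE array each, while Kdr, the receptor of endothelial growth factor, was measured at 2.87 to 3.12 in nEnd and 2.71 to 3.18 in ADE. The part of other cells in the differences between the sides was not tested. Sox3, a neural factor, was higher in ADE by 4.70, but its own-set difference was 0.72 towards nEnd without a call (adjusted p = 0.42).

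Genes of the naive state were measured in nEnd alongside the endoderm factors. Of 20 naive pluripotency members, 11 were higher in nEnd, 3 higher in ADE and 6 not called. With each side set against its own stem cells, 10 were higher in nEnd and 1 in ADE. Dppa5a, an RNA-binding protein of naive cells, was at 6.93, 7.70 and 7.92 in nEnd and -2.79, -1.88, -2.76 and -1.23 in ADE, higher in nEnd by 9.76 ± 0.32. Its mean was 8.44 on ESC arrays. Klf4, a Krüppel-like factor, was higher in nEnd by 5.97 ± 0.22, Tbx3, a T-box factor, by 6.84 ± 0.49, and Zfp42, the zinc finger protein Rex1, by 6.63 ± 0.40 with 1 ADE array well above background. Tdh, a threonine-degrading enzyme, was at 1.71, 2.33 and 4.22 on Mid arrays and 6.53, 4.56 and 6.39 on Late arrays, against -2.82 to -0.84 in ADE. Nanog was well above background on 2 nEnd and 4 ADE arrays, spanned -5.64 to -2.97 and -4.27 to -1.76, and was not called. Nr0b1, another naive-state factor, was higher in ADE by 6.61 with 3 nEnd arrays well above background, and Esrrb and Klf2 were not called.

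Of 16 general pluripotency members, 6 (37.5%) were higher in nEnd and 5 (31.2%) in ADE, beside 26.8% and 26.6% over all genes. The own-set comparison called 8 higher in nEnd and 2 in ADE. Pou5f1, which encodes Oct4, was at 1.94, 2.89 and 3.26 in nEnd and 0.09, 1.12, 0.71 and 2.82 in ADE, higher in nEnd by 1.61 ± 0.34, but the ranges overlapped and the own-set difference of 1.24 was not called (adjusted p = 0.087). Dppa2, a chromatin factor of early embryos, was higher in nEnd by 5.60, with 1 ADE array well above background, and its partner Dppa4 by 3.08, with 3. Lin28b, an inhibitor of let-7 microRNAs, was higher in ADE by 6.98 with 4 nEnd arrays well above background. Its relative Lin28a was not called, but against own-set stem cells it was called higher in nEnd by 1.70 (adjusted p = 0.00071).

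Ligands, cofactors and targets of Activin and Nodal signalling were mostly higher in ADE, 14 of 20 against 3 in nEnd. Nodal, the ligand itself, was at -1.86, -1.36 and -0.73 in nEnd and 5.0, 5.33, 5.45 and 5.09 in ADE, higher in ADE by 6.54 ± 0.39 (adjusted p = 2.2e-12). Lefty1, a secreted Nodal inhibitor that Nodal induces, was at 8.18, 8.24, 8.31 and 8.13 in ADE and well above background on 3 nEnd arrays, where it reached 0.19 at most. Lefty2 was higher in ADE by 4.63, Foxh1, the DNA-binding partner of the pathway's Smads, by 4.85, and Inhbb, a subunit of Activin B, by 5.24 with 4 nEnd arrays well above background. Among the receptors, Acvr2b was higher in ADE by 1.98 and Acvr2a by 0.75, Acvr2a without a call against own-set stem cells (adjusted p = 0.16). Acvr1b was not called at -0.15 (95% interval -0.54 to 0.25), but against own-set stem cells it was called higher in ADE by 1.18 (adjusted p = 0.0036). The mean of Acvr1b was -1.46 on ESC arrays and -2.5 on 2iL arrays, so here too the value rests largely on the stem cells. Fst, Pcsk6, a protease that matures Nodal, and Gdf1, a partner ligand, were higher in nEnd by 3.59, 2.06 and 1.11. For Gdf1, Late minus ADE was 1.95, while Mid minus ADE was 0.27 and was not called (adjusted p = 0.57), nor was its own-set difference (adjusted p = 0.071). Pmepa1, a feedback inhibitor, was higher in ADE by 2.39, but its own-set difference of 0.38 was not called.

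Of 22 Wnt targets and antagonists, 11 were higher in ADE and 2 in nEnd. Sfrp1, a secreted antagonist, was at 4.35, 4.31, 4.25 and 4.27 in ADE and well above background on 2 nEnd arrays. Lgr5, the receptor of R-spondins and a Wnt target, was higher in ADE by 6.82 with 2 nEnd arrays well above background, and Lef1, a nuclear effector, by 6.57 with 1. Wnt11, a Wnt ligand, and Dkk3, a relative of the Dickkopf antagonists, were higher in nEnd by 2.84 and 2.83, Dkk3 with 2 ADE arrays well above background and without a call against own-set stem cells (adjusted p = 0.059). Notum, Rnf43 and Znrf3, feedback inhibitors, were measured on all 10 arrays and not called, while Axin2 was well above background on 2 nEnd and 2 ADE arrays.

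The FGF list held 13 of 22 members higher in ADE and 4 higher in nEnd. Own-set counts were 4 higher in nEnd and 5 in ADE. Fgfr1 was at -4.11, -2.59 and -1.47 in nEnd and 3.19, 2.97, 1.77 and 3.26 in ADE, higher in ADE by 5.54 ± 0.41. Fgfr3 and Fgfr4 went the other way, higher in nEnd by 4.44 ± 0.39 and 3.97 ± 0.32. Klb, the co-receptor beta-klotho that Fgfr4 uses for endocrine FGFs, was higher in nEnd by 7.59 ± 0.31 with 3 ADE arrays well above background. Fgfr2 was higher in ADE by 0.59, with an own-set difference of 0.16 that was not called. Dusp6, a phosphatase induced by ERK, was higher in ADE by 3.44 ± 0.23, while the feedback genes Spry2, Dusp4 and Etv4 were not called.

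LIF pathway genes were mostly higher in nEnd, 11 of 15 against 2 in ADE. Lifr, the LIF receptor, was at 2.56, 3.28 and 3.79 in nEnd and -0.16, 0.14, -1.79 and -0.65 in ADE, higher in nEnd by 3.83 ± 0.31. Il6st, its partner chain gp130, was higher by 1.28 and Stat3, the factor it activates, by 1.48. Socs3, a feedback inhibitor that STAT3 induces, was at 4.38, 4.64 and 5.13 in nEnd and -0.35, -0.15, -0.68 and 0.15 in ADE, higher by 4.94 ± 0.33. Osmr, the oncostatin M receptor, was at least 16-fold higher in nEnd and Bcl3 higher by 6.90. Socs2 and Jak1 were higher in ADE by 1.49 and 0.77, Jak1 without a call against own-set stem cells (adjusted p = 0.51).

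Of 17 BMP signalling genes, 4 were higher in nEnd and 4 in ADE. That is 23.5% each way, near the 26.8% and 26.6% over all genes. With each side set against its own stem cells, 5 were higher in nEnd and 2 in ADE. The ligands divided, with Bmp6 at least 27.5-fold higher in nEnd and Bmp7 higher in ADE by 5.41, where 1 nEnd array was well above background. Bmp4 was higher in ADE by 3.17, but its own-set difference of 0.52 was not called. Id3 and Smad6, which BMP induces, were higher in ADE by 1.17 and 0.79, and against own-set stem cells they stood at 1.37 and 0.67 towards nEnd without a call. The call of Smad6 was lost when any 1 of 8 of the 10 arrays was left out and when Mid and Late of a number were averaged first.

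Of 17 retinoid genes, 6 (35.3%) were higher in nEnd and 5 (29.4%) in ADE, beside 26.8% and 26.6% over all genes. The own-set comparison called 5 higher in nEnd and 2 in ADE. Rarb, a retinoic acid receptor that retinoic acid induces, was higher in ADE by 4.54. In the list of Hox and Cdx genes, 5 of 15 (33.3%) were higher in nEnd and 3 (20.0%) in ADE. Own-set counts were 5 higher in nEnd and 0 in ADE. Cdx2, a caudal homeobox factor of hindgut and trophoblast, was at -0.71, -0.52 and 1.49 in nEnd and -2.10, -3.88, -2.68 and -2.98 in ADE. Hoxb4 was higher in nEnd by 6.44 ± 0.75, with ADE 1 at -2.0 and the other ADE arrays at background. Many members were near background, with 6 measured on all nEnd arrays and 3 on all ADE arrays.

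Products of gut, stomach and pancreas were higher in nEnd for 13 of 21 members and higher in ADE for 4. With each side set against its own stem cells, 9 were higher in nEnd and 3 in ADE. Tff1, a trefoil peptide of stomach mucus, was at 1.49, 3.31 and 4.47 in nEnd and well above background on 0 ADE arrays, at least 219-fold higher in nEnd. Gkn2, its stomach partner, was at least 91.6-fold higher, Lgals2, a gut lectin, at least 165-fold and Reg3g, an antibacterial lectin, at least 17.3-fold. Ghrl, the hunger hormone ghrelin, was measured on all arrays and was higher in nEnd by 4.26 ± 0.39. Pdx1, the pancreas factor, was higher in ADE by 2.30, with 3 nEnd arrays well above background and an own-set difference of 1.48 that was not called. Vil1, the brush border protein villin, was higher in ADE by 1.1.

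Lysosomal genes were higher in nEnd for 14 of 21 members and higher in ADE for 4, and all 21 were well above background on every array of both sides. The own-set comparison called 12 higher in nEnd and 1 in ADE. Ctsa, a lysosomal protective protein, was at 7.33, 7.89 and 8.25 in nEnd and 5.48, 5.78, 5.60 and 5.25 in ADE, higher in nEnd by 2.29 ± 0.19. Lamp1, the major membrane protein of the lysosome, was higher by 1.17 and Ctsd, a protease, by 1.56. Npc1 and Npc2, which export cholesterol from the lysosome, were higher in ADE by 0.51 and 0.47, and the call of Npc2 was lost without any 1 of ADE 1, ADE 2, Late 3, Mid 1 or Mid 2, and when Mid and Late of a number were averaged first. Centring on the array median ended the calls of both genes. Of 20 cholesterol synthesis members, 9 were higher in ADE and 1, the feedback protein gene Insig1, was higher in nEnd by 1.66. Idi1 and Fdps, enzymes of the isoprenoid steps, were higher in ADE by 1.54 and 1.52. Against own-set stem cells 3 members were higher in ADE and 1 in nEnd.

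Of 21 cell cycle genes, 15 were not called, 5 were higher in ADE and 1 (Ccna2, a cyclin, by 0.35) was higher in nEnd, all by less than 1 log2 unit. Own-set counts were 4 higher in nEnd and 1 in ADE. The call of Ccna2 was lost without any 1 of ADE 2, ADE 3, Late 1 or Late 3, and when Mid and Late of a number were averaged first. Mki67, the proliferation marker, was at 3.70, 4.00 and 4.52 in nEnd and 4.48, 4.24, 3.89 and 4.23 in ADE, a difference of -0.14 (95% interval -0.48 to 0.20). Ccne1 and Cdk1 were higher in ADE by 0.96 and 0.79 but stood at 0.06 and 0.37 towards nEnd, without a call, against own-set stem cells. Of 18 p53 targets and growth arrest genes, 10 were higher in nEnd and 2 in ADE. Pmaip1, the cell death gene Noxa, was at least 56.3-fold higher in nEnd, and Gdf15, a stress hormone, spanned -1.38 to 4.08 in nEnd and -4.95 to -3.06 in ADE, where 3 arrays were well above background. Cdkn1a, the cell cycle inhibitor p21, was not called at 0.38 (95% interval -0.15 to 0.91). Cdkn2b, an inhibitor of cyclin-dependent kinases, was higher in ADE by 3.15.

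Glycolysis genes were called higher in nEnd for 8 of 20 members and in ADE for 2, and against own-set stem cells for 2 and 1. Pfkl, a phosphofructokinase subunit, was higher in nEnd by 1.93 ± 0.25, while Gapdh was not called at -0.17 (95% interval -0.55 to 0.21). Of 14 metal-handling genes, 4 (28.6%) were higher in nEnd and 2 (14.3%) in ADE, beside 26.8% and 26.6% over all genes. Hamp, the iron hormone hepcidin, was at least 16.9-fold higher in nEnd, and Slc40a1, the iron exporter that hepcidin acts on, was higher in ADE by 3.17 ± 0.39.

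Imprinted genes were called in both directions, 7 of 17 (41.2%) higher in ADE and 5 (29.4%) in nEnd. Over all genes the shares were 26.6% and 26.8%. Against own-set stem cells 5 members were higher in ADE and 6 in nEnd. Meg3, a maternally expressed noncoding RNA, was at 6.33, 6.58, 5.97 and 5.91 in ADE and, well above background on 4 nEnd arrays, at -5.18, -3.89 and -1.55 (lowest, median and highest) in nEnd. Mest and Grb10 were higher in ADE by 9.87 and 7.56, with 5 nEnd arrays well above background each. On stem cell arrays Meg3 had means of 5.40 (ESC) and 5.65 (2iL), and on EpiSC arrays 5.69. Plagl1, a zinc finger gene, was at least 44.1-fold higher in nEnd, and Peg10 was higher by 2.23. Igf2 was not called, and H19, Rian and Nnat were not among the genes tested.

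The remaining genes were named by size alone. Among those measured on all 10 arrays without overlap, the 8 largest differences towards nEnd were Aqp8 (9.99), Dppa5a (9.76), Pigp (8.84), Fabp3 (8.65), Lama1, Cubn, B4galnt2 (8.21) and Slc13a5 (8.21). Aqp8 was at 6.32, 6.47 and 7.66 in nEnd and -3.56, -3.96, -2.29 and -2.89 in ADE. Fabp3 binds fatty acids, Slc13a5 imports citrate, and B4galnt2 and Pigp build sugar chains and membrane anchors. The 8 largest towards ADE were Tspan7 (9.57), Chga (8.68), Gckr (8.43), Sfrp5, Slc38a5 (8.17), Trh, Zfp365 (7.56) and Fgf8. Chga, the granule protein chromogranin A, was at -3.40, -1.19 and -0.99 in nEnd and 6.68, 6.66, 7.34 and 7.14 in ADE. Gckr, the regulator of glucokinase, was at -3.20, -2.72 and -2.22 and 5.76, 5.71, 5.81 and 5.56. Tspan7 is a membrane tetraspanin and Slc38a5 an amino acid transporter.

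Among genes measured on every array of one side and at background on the whole other side, the largest bounds towards nEnd belonged to Xlr3b (at least 297-fold), Rhox6 (246), Eif2s3y (245), Tff1, Trpm6 (178), Lgals2, Xlr4b (148) and Cmbl (137). Xlr3b, Xlr4b and Rhox6 lie on the X chromosome in families of near-identical copies, so their probes may read more than 1 copy. Towards ADE they were Cer1, Fgf5, Gsc, Cbln1 (469), Pdlim3 (466), Shisa2, Kif26a (375) and Sema5b (261). Cbln1 is a secreted synapse organiser, Kif26a a kinesin-like protein and Sema5b a semaphorin.

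**Figure D5:**
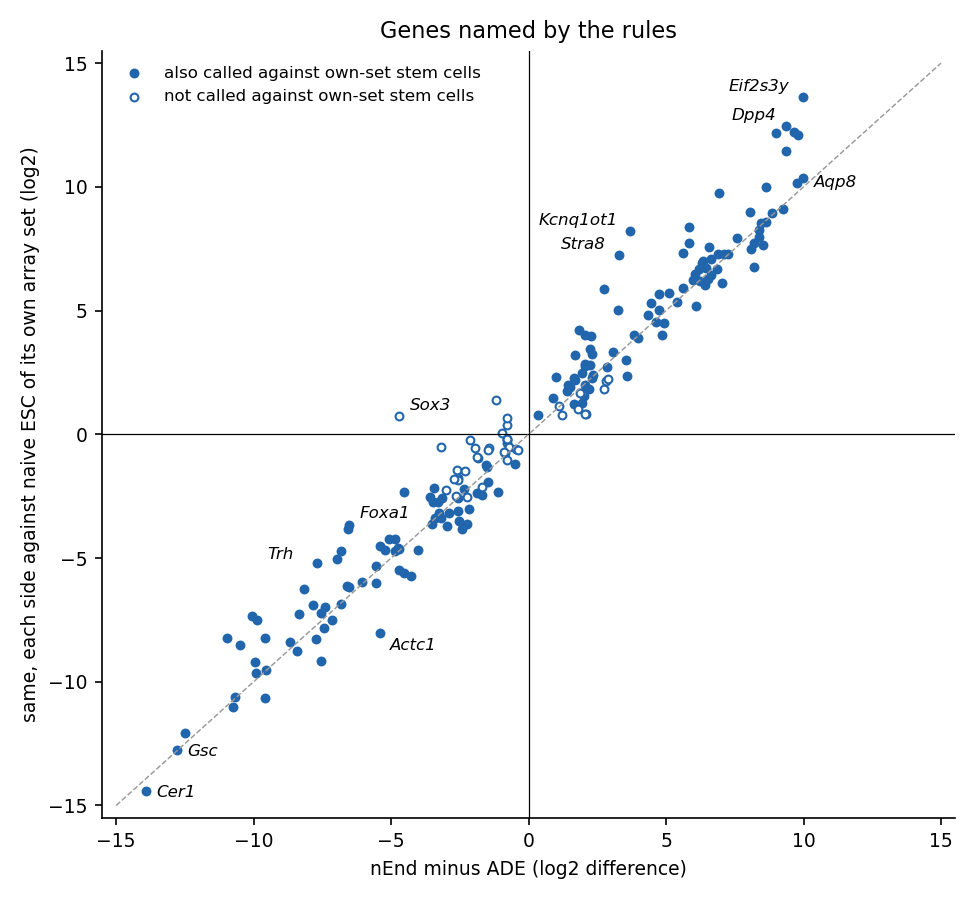
For each reported gene named by the rules, the nEnd minus ADE log2 difference (x axis) and the same with each side set against naive stem cells of its own array set (y axis); filled points were called in both, open points were not called against own-set stem cells, and the dashed line marks equal values. Both axes use the same 10 arrays. Sox3 stands at -4.70 on the x axis and 0.72 on the y axis.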

How the data were processed

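Spot intensity in the deposited scanner files came, per the file headers, from Agilent Feature Extraction, version 11.0.1.1 for the first array set and 12.0.1.1 for the second; the submitters' processing notes give 9.1. The authors deposited a series matrix of processed log2 values whose normalization is not given in the sources used here; its columns had medians of 5.94 to 5.949. Correlations of 0.909 to 0.937 with log2 of the scanner intensity were the basis for reading it as log2, and it served as an alternative only.

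Each array's processed signal, which the scanner software had corrected for background, was put on the log2 scale and centred on its own 75th percentile, from 171 to 323 intensity units on nEnd arrays and 181 to 218 on ADE arrays. Spots flagged as outliers were left out (132 to 240 of 59305 per array). Of 55681 probes, 27636 received 1 symbol through their accession (RefSeq table of GRCm38.p6, names only, since the headers name mm9), giving 20956 symbols. For the 5552 symbols with several probes, the probe with the highest mean stood for the gene; for 63 genes another probe was called in the opposite direction. A gene was tested where some group among the 9 had it well above background throughout, which left 16333; 12 of them lacked a value on 1 or more of the 10 arrays. One limma 3.58.1 model of 9 group means (lmFit and eBayes, R 4.3.3) was fitted to all 29 arrays, with Benjamini-Hochberg adjustment over all genes tested and calls at adjusted p under 0.05. Intervals are the estimate ± 2.086 SE, two-sided 95% intervals from a t distribution with 20 residual degrees of freedom. The number of arrays limits the precision. On simulated data with changes of 1, 2 and 4 log2 units in this comparison, run over 16333 genes, 50.7%, 86.6% and 100% were recovered. The changes were put into 67, 67 and 66 genes, with noise drawn independently for each array and no effect of the array set. In the data 53.4% of genes were called, so these shares need not hold for the real comparison.

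A probe not well above background on any array of a side gives a bound. The bound sets the bright side's mean against the dim side's mean, where a dim array counts with whichever is higher, its probe's reading or the dimmest reading that passed as well above background, and is written as at least that fold. Genes were named by 3 rules: the 8 largest differences each way among called genes measured on all 10 arrays, without overlap and called the same way against own-set stem cells; the 8 largest bounds each way; and up to 4 members each way of each of 30 lists (525 genes, 488 tested), with the marker genes of either side. Some genes these rules name are not reported here. Genes outside them were named after their values were seen, to describe a list. The members and lists were chosen with earlier results of these data known, so no list count is independent evidence of its direction.

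Deviations of same-numbered Mid and Late arrays from their group means correlated at r = 0.218, 0.129 and 0.141, and the labels state no pairing. Mid and Late arrays of different numbers spanned -0.254 to 0.064. Some pairs of an nEnd and an ADE array reached like values, 0.162 for Late 1 with ADE 1 and 0.132 for Mid 1 with ADE 2. A pairing of Mid and Late is therefore possible but not established by these values. The model has no pairing term, which may understate its errors; averaging Mid and Late of a number first was an alternative. Alternatives were another centring, quantile normalization, normexp on the median spot signal and its local background with an offset of 50 (the planned mean signal was not used), other filters, the mean over probes, limma's treat against a log2 difference of 1, slide, scan day and replicate number as blocks, and each replicate left out. Files were read with Python 3.11.15, numpy 2.4.6 and pandas 2.3.3, and plots were drawn with matplotlib 3.10.9.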

Additional observations from a re-analysis of the deposited data

Results flagged for a closer look

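Of 205 named genes called, 14 had 1 ADE array whose gap to the nearest other ADE array exceeded Dixon's 95% critical value for 4 samples; chance flags about 1 in 20 groups, and the Mid and Late groups of 3 were not tested. On ADE 1, Hoxb4 stood at -2.0 (others -6.94 to -6.47), Dpp4 at -3.28 (others -6.74 to -6.35), Cldn7 at 4.14 and B4galnt2 at -2.69. On ADE 2, Etv2 stood at -1.32 (others -3.02 to -2.92), Pcsk6 at -1.48, Thbd at -5.93, Wnt11 at 0.11, Lgr5 at 0.69 and Pfkl at 1.97. On ADE 3, Lin28b stood at 1.71 (others 2.72 to 2.90), Ocln at -0.46 and Bmp6 at -5.32. On ADE 4, Utf1, a chromatin factor of pluripotent cells, stood at 4.55 (others 2.85 to 2.99). Thbd and Bmp6 were not well above background on any ADE array.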

How the results depend on the processing

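Main counts are 8715 genes called, 4378 higher in nEnd and 4337 lower. Leaving out 1 nEnd or ADE array gave 7997 to 8494 called, 4000 to 4271 higher and 3922 to 4328 lower, with 1217 to 1271 higher and 1505 to 1599 lower by at least 2. Own-set counts without 1 array, stem cell arrays included, were 5197 to 5864 called, 2997 to 3412 higher and 2196 to 2522 lower, beside 5883, 3412 and 2471. Counts that moved by over 1.5 times were 2471 genes lower against own-set stem cells and, with median centring, 1613 lower in that comparison. Limma's treat gave 3094 called, 1425 higher and 1669 lower. At a log2 difference of at least 2, higher and lower counts were 648 and 599 among the 12479 genes measured on all 10 arrays. They were 549 and 629 with normexp, and 564 and 656 in the deposited matrix, where 13093 genes were tested. The first of these settings tests fewer genes by construction, and the matrix also holds fewer. The cause with normexp and with the matrix was not tested. Shares of calls that were higher in nEnd ranged from 46.1% to 58.0%, and the median over all genes moved by at most 0.08. With the replicate block, 8745 genes were called, 4452 higher, and the block moved no count by over 1.5 times. It pairs nEnd and ADE numbers too, whose same-numbered deviations correlated at 0.016 to 0.162. Averaging Mid and Late of a number first gave 7644 called. Added after seeing the data, leaving out genes of chromosomes X, Y and 19 gave 7964 called of 15153 (3945 higher, 4019 lower).

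Of 209 named genes, 69 changed call in at least 1 of 26 settings and 6 changed direction: Cdh11 to -1.06 with the mean over probes and -0.21 in the deposited matrix, and, against own-set stem cells, Ccne1 to 0.06, Cdk1 to 0.37, Id3 to 1.37, Smad6 to 0.67 and Sox3 to 0.72. None of these changed values was called; the cause was not tested. Restricting lists to genes measured on all 10 arrays left 7 definitive and anterior endoderm members higher in ADE, 7 primed epiblast members and 3 primitive streak members, since genes at background on a side drop out. Signal over background sets the limit for such genes, for which only bounds are given.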

Other observations

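Genes of chromosome 19 were more often higher in nEnd than genes overall: 254 of 556 tested (45.7%) were called higher and 97 (17.4%) lower, with a median difference of 0.45 beside 0.03 over all genes, and of 0.42 against own-set stem cells. Median shifts of chromosome 19 relative to stem cells of the own set were 0.28 to 0.43 on Mid arrays, 0.38 to 0.45 on Late arrays and 0.38 to 0.44 on XEN arrays. They were 0.00 to 0.03 on Diff arrays, from which nEnd was passaged, 0.01 to 0.06 on ADE arrays and 0.01 to 0.03 on EpiSC arrays. The nEnd arrays thus did not overlap the Diff or ADE arrays in this value.

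Genes of chromosome 14 leaned to ADE, with 93 of 554 (16.8%) higher in nEnd, 219 (39.5%) lower and a median of -0.30. Relative to own-set stem cells the chromosome shifted by -0.12 to -0.01 on Late arrays, -0.10 to -0.06 on Mid arrays and 0.13 to 0.23 on ADE arrays. An upward shift was not particular to ADE, at 0.13 to 0.16 on Diff, 0.17 to 0.25 on EpiSC and 0.4 to 0.53 on XEN arrays. Chromosome 8 shifted by -0.32 to -0.23 on ADE arrays and -0.29 to -0.25 on EpiSC arrays, and the 2iL arrays it was set against spanned -0.26 to 0.15. Among ESC arrays, of the line nEnd came from, Eif2s3y spanned -1.25 to 1.20, below all 6 nEnd arrays.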
